A study of Mus musculus with 10 samples.

Results

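The liver's response to loss of SCAP was measured by setting 2 arrays of Scap-/- liver RNA against 2 arrays of wild-type controls, called Scap_WT here, on the Affymetrix MG_U74Cv2 array. These 4 arrays, chosen by their titles, are part of a series of 10 arrays in 5 groups. Each group was 1 pool of liver RNA from 5 male mice, and each pool was hybridised to 2 arrays. All 11868 probe sets other than the 66 controls were compared. The Scap-/- mice carried MX1-Cre, a recombinase gene under an interferon-responsive promoter. They and the Scap_WT mice were 10 to 12 weeks old, ate Teklad chow and had been given 4 intraperitoneal injections of polyinosinic-polycytidylic acid, poly(I:C), which mimics viral RNA and switches on the recombinase. Livers were taken 14 days after the last injection. The labels do not say whether the Scap_WT mice also carried MX1-Cre, and the promoter is known to act in blood and other cells besides hepatocytes. Some values are set beside those of 3 further pools of male mice aged 12 to 16 weeks that were kept for 2 weeks on a diet of high protein and low carbohydrate content. These were TgSREBP-1a and TgSREBP-2, which overexpress the active nuclear form of human SREBP-1a or SREBP-2, and their wild-type littermates, SREBP_WT.

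SCAP is a membrane protein that senses sterols and escorts the sterol regulatory element-binding proteins (SREBPs) from the endoplasmic reticulum to the Golgi apparatus, where proteases release their nuclear forms. The nuclear SREBPs are transcription factors that bind sterol regulatory elements, often next to sites for the factor NF-Y, and switch on genes of cholesterol and fatty acid synthesis. Liver without SCAP therefore lacks the nuclear forms of SREBP-1 and SREBP-2 alike, and its synthesis of both kinds of lipid is known to fall. The comparison asks which further transcripts differ in such a liver.

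The promoters of the 5 genes with called lower probe sets are shown because these genes moved in the same direction, 3 of them enzymes of cholesterol synthesis and 2 of them products of pancreatic acinar cells. Each line gives the 250 bases before the RefSeq start site (build GRCm38.p6) from 5′ to 3′ on the gene's own strand. Capitals mark CCAAT, the core of the NF-Y site, or ATTGG, its complement. In Nsdhl they also mark the 1 match to the core of the sterol regulatory element with a mismatch. The windows are chrX:72918271-72918520 (plus strand) for Nsdhl, chr19:6067851-6068100 (minus strand) for Tm7sf2, chr3:89454291-89454540 (plus strand) for Pmvk, chr6:30638968-30639217 (plus strand) for Cpa1 and chr7:119459273-119459522 (minus strand) for Gp2.
Nsdhl: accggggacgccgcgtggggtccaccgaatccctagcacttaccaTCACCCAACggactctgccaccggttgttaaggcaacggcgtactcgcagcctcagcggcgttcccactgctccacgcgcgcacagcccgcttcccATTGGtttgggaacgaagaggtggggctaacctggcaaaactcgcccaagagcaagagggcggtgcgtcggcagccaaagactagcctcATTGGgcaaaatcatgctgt
Tm7sf2: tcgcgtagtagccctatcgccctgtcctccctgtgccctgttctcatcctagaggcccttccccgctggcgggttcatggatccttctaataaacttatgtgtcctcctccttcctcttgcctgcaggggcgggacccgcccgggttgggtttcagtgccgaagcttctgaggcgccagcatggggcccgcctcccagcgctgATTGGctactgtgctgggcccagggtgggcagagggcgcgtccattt
Pmvk: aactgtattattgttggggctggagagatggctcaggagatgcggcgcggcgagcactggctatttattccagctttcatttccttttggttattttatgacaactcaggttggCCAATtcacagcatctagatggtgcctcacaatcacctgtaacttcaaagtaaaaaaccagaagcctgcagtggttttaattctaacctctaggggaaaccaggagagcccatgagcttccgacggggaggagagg
Cpa1: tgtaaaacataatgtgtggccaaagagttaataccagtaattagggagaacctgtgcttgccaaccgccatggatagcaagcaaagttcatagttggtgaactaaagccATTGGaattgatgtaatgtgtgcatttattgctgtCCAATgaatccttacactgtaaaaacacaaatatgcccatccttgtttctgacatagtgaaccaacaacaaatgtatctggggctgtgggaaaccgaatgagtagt
Gp2: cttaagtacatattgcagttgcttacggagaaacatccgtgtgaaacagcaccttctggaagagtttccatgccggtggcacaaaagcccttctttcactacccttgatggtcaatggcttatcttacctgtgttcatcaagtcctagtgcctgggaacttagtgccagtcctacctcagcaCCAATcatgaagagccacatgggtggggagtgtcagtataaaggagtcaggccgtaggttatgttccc

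The core searched was TCACNCCAC, with N for any base, on both strands of the window from 250 bases before to 50 bases after the start. It occurred in 408 of 32851 promoters of that length (1.24%) and in 0 of the 7 called genes that have an entry. With up to 1 mismatch it occurred in 24.2% of all promoters and in 1 of the 7 genes, Nsdhl, where the letters TCACCCAAC lie 205 to 197 bases before the start. The string CCAAT, which does not overlap that core, occurred on either strand in 37.4% of all promoters and in 6 of the 7 genes, the 5 above and Lce3f. In Tm7sf2 it lies 47 to 43 bases before the start and in Nsdhl at 109 to 105 and 20 to 16 bases. These are matches of letters and were not measured as binding sites. Pmvk has a second RefSeq start, and the 250 bases before it (chr3:89459321-89459570) hold none of these letters. Which start the liver uses was not measured, so the Pmvk match rests on the choice of the first start. Pmvk is counted once as a gene, with CCAAT before its first start, while the shares of all promoters count each promoter.

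The arrays were close to each other. Their median signals lay between 4.69 and 4.77 on the log2 scale, and the duplicates correlated at 0.992 (Scap-/-) and 0.993 (Scap_WT) over all probe sets, which are not independent. Between the duplicates of 1 pool, 226 probe sets (Scap-/-) and 187 (Scap_WT) differed at least 1.5-fold, and between single arrays of the different pools 57 to 268 did. The 18S ribosomal RNA control was 7.60 on Scap-/- array 2 and 6.36 to 6.65 on the other Scap arrays. Scap itself has no named probe set among those tested, nor have Srebf1 and Srebf2, so the deletion could not be checked on its own transcript. Some liver transcripts were bright in both pools, among them hemopexin, Hpx (10.43 to 10.80), plasminogen, Plg (8.62 to 9.10), and the fibrinogen chain Fga (8.74 to 9.05). Others from the same lists were dimmer, among them Serpina1a (3.44 to 3.57), Ahsg (2.75 to 3.29) and Hp (5.32 to 5.60). The p-values compare these pools through the spread between hybridisations and hold no variation between mice.

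Few transcripts were told apart between the pools. At an adjusted p under 0.05 (limma, Benjamini-Hochberg over all probe sets) together with at least a 1.5-fold difference, 10 probe sets were called, which is 0.0843% of those tested. Of these, 5 were higher and 5 lower in Scap-/-, each 0.0421% of all. The count was 3 without Scap_WT array 1, 6 without Scap_WT array 2 and 6 without Scap-/- array 1. It was 4 in a fit of the Scap arrays alone. A further 22 probe sets differed at least 1.5-fold without being called, and 11 in all differed at least 2-fold. An unadjusted p under 0.05 was reached by 451 probe sets (3.8%). The 2 arrays of one pool both lay above or both below the 2 arrays of the other at 3524 probe sets (29.7%), which are termed apart here, so arrays that are apart carry little weight alone. The median log2 difference over the 5928 measured genes, each at its probe set of highest mean signal, was 0.0051. Precision is limited by the number of arrays. A log2 difference had a standard error of 0.114 at the median probe set.

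**Figure D1:**
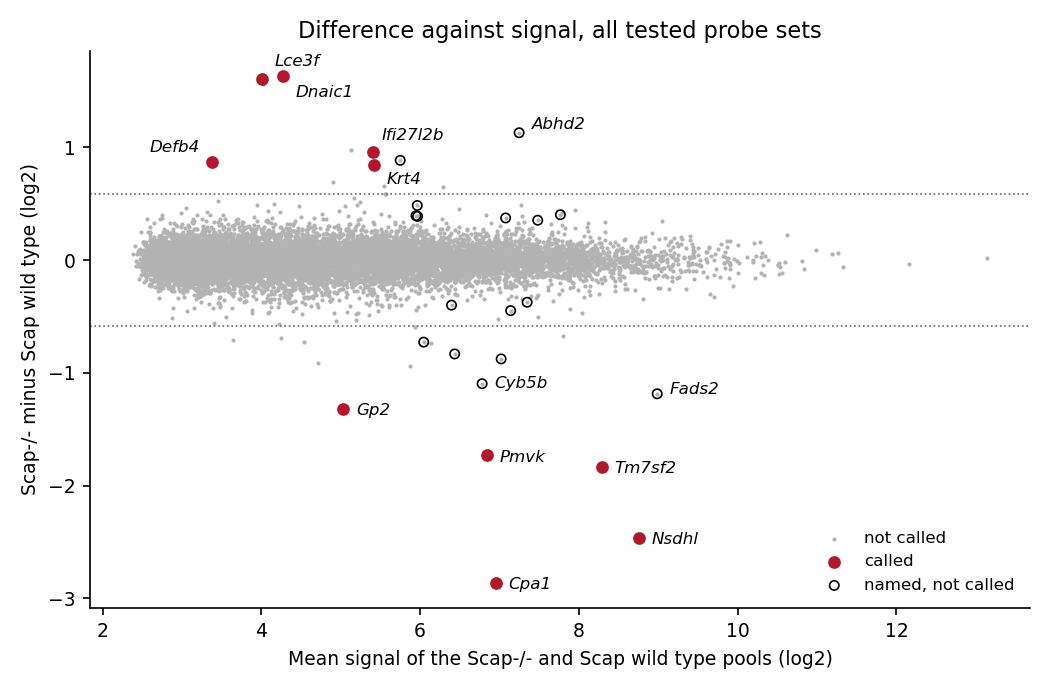
Each point is 1 of the 11868 probe sets, with its mean signal over the 4 Scap arrays on the x axis and its difference between the pools on the y axis, both on the log2 scale; dotted lines mark 1.5-fold, filled circles the 10 called probe sets and open circles genes named by rule but not called. All but 32 points lie within the dotted lines, with Cpa1 (-2.86) and Nsdhl (-2.47) farthest below it and Dnaic1 (1.63) and Lce3f (1.61) farthest above.

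Called probe sets occurred at every level of signal. Ranked by the mean over all 10 arrays, and cut into 4 equal bins, the dimmest bin (means of 2.36 to 3.54) held 1 called probe set, the next 2, the next (from 4.74) 3 and the brightest (6.12 to 12.8) 4. Of the 32 probe sets at least 1.5-fold apart, the same bins held 2, 5, 14 and 11. Without detection calls in the table, it is not known whether a dim signal lies above background. Folds are therefore given only where the lower pool's mean exceeded the median of all probe sets, 4.74.

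Of the lipid genes, 3 enzymes of sterol synthesis fell. Nsdhl, a sterol dehydrogenase, gave 7.93 and 7.13 on the Scap-/- arrays and 10.24 and 9.75 on the Scap_WT arrays (log2 signal), a 5.53-fold lower level. Its call was lost without Scap_WT array 1 (log2 difference -2.22, limma adjusted p = 0.101). Tm7sf2, a sterol reductase, and Pmvk, phosphomevalonate kinase, were 3.56-fold and 3.32-fold lower. Tm7sf2 lost its call without Scap-/- array 2 or without either Scap_WT array (-1.93 to -1.61). These 3 are the called members among the 13 measured of 23 listed genes of cholesterol synthesis. The other 10 lay between -0.32 for Cyp51, a sterol demethylase, and 0.24 for Mvk, mevalonate kinase, on the log2 scale. Of the 13 measured, 11 had a mean signal above the median of all probe sets. Dim ones were Mvk (4.09 and 3.90 in Scap-/- against 3.89 and 3.63) and Sc5d (3.03 and 3.04 against 3.28 and 3.41). Mvk also stood at -0.09 in TgSREBP-1a and 0.04 in TgSREBP-2 (log2 difference from SREBP_WT). A small difference at a dim probe set does not show an unchanged transcript. Of the whole list 7 genes were lower on both Scap-/- arrays than on either Scap_WT array and 2 higher, against 14.4% and 15.1% of all measured genes. The list's median difference was -0.12.

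Among the genes of fatty acid, triglyceride and phospholipid synthesis, 9 of 38 listed were measured and none was called. Fads2, the desaturase that starts the synthesis of long polyunsaturated fatty acids, had the largest difference. Its signal was 8.66 and 8.12 on the Scap-/- arrays and 9.74 and 9.42 on the Scap_WT arrays. All 4 values lie in the bright range and the groups do not overlap, and the level was 2.27-fold lower in Scap-/- (log2 difference -1.19, SE 0.252, limma adjusted p = 0.373). It was called when the 18S signal entered the fit as a covariate (-1.08, adjusted p = 0.0184). Pcyt2, which makes the activated ethanolamine of phosphatidylethanolamine, gave 7.22 and 7.10 against 7.60 and 7.47 (log2 difference -0.37, adjusted p = 0.88). The citrate-cleaving enzyme Acly differed by -0.23, the triglyceride-forming enzyme Dgat1 and the phosphatidate phosphatase Lpin1 by -0.13 each, and the elongation enzyme Hacd2 by 0.32. The list's median was -0.13, with 5 genes apart and lower and 3 apart and higher, against 14.4% and 15.1% of all measured genes.

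Other lipid lists held no called gene. In fatty acid oxidation and ketogenesis 8 of 45 listed genes were measured, with a median of 0.11. The hepatic hormone Fgf21 lay highest, at 5.10 and 5.09 in Scap-/- against 4.82 and 4.82 (log2 difference 0.28, limma adjusted p = 0.999), and its co-receptor Klb lowest at -0.16. The pantetheinase Vnn1 differed by 0.25, and the lipid droplet proteins Plin2, Plin4 and Plin5 by 0.11, -0.01 and 0.14. Of SREBP control and sterol transport 5 of 25 genes were measured, from the sterol carrier Stard4 at -0.27 and the sterol exporter subunit Abcg8 at -0.21 to the pseudokinase Trib1 at 0.24. The site-1 protease Mbtps1, which makes the first cut in SREBPs, differed by 0.16. Lipoprotein and phospholipid genes ran from the endothelial lipase Lipg (-0.14) to the sphingomyelin synthase Sgms1 (0.28) over 7 measured genes.

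The largest difference of all was in a transcript of pancreatic acinar cells. Cpa1, a digestive carboxypeptidase, gave 5.59 and 5.45 on the Scap-/- arrays and 8.37 and 8.39 on the Scap_WT arrays. The duplicates were nearly equal and the pools far apart, so that the level was 7.25-fold lower in Scap-/- (log2 5.52 ± 0.10 against 8.38 ± 0.010, mean ± SD, n = 2 hybridisations; difference -2.86, SE 0.198, limma adjusted p = 0.000152). Gp2, a membrane protein of the granules that store digestive enzymes, gave 4.55 and 4.19 against 5.84 and 5.55 (log2 difference -1.32, SE 0.160, adjusted p = 0.00783). The arrays are apart for Gp2, with the Scap-/- mean under the overall median signal. Its call was lost without Scap-/- array 2 (-1.14) or Scap_WT array 1 (-1.17).

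The rest of the acinar marker list was mixed. Of its 53 genes 14 were measured, 2 were called, 6 were apart and lower, and 2 were apart and higher, against 14.4% and 15.1% of all measured genes. The granule protein Cuzd1 (-0.39) and the secreted protein Reg2 (-0.69; 3.62 and 4.18 against 4.69 and 4.48) were lower at an unadjusted p under 0.05 without being called, and Reg2 was called without Scap-/- array 2 (-0.97) and stood at -0.41 without array 1. The carboxypeptidase Cpb1 differed by -0.21, the elastase Cela2a by -0.13, the transcription factor Rbpjl by -0.12, the disulfide isomerase Pdia2 by -0.11 and the water channel Aqp12 by -0.07. The lipase-related Pnliprp1 (-0.02), chymotrypsin C, Ctrc (-0.0099), and the phospholipase Pla2g1b (0.014) lay near 0, and the transcription factor Ptf1a (0.15) and the amylase Amy2a5 (0.19) lay above it. The mean log2 signal over the 14 genes was 4.59 and 4.56 in Scap-/- against 4.95 and 4.99 in Scap_WT. The amylase and carboxypeptidase B probe sets, defining markers of these cells, stayed between 2.75 and 3.18 on all 4 arrays. In pooled tissue RNA, fewer cells of a type and less RNA per cell cannot be told apart. The source of the acinar RNA in these liver pools was not tested. Cpa1 differed between the wild-type pools too, at 8.37 and 8.39 in Scap_WT and 10.25 and 9.53 in SREBP_WT. The part of acinar RNA in the other differences was not tested.

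Of the 5 probe sets that rose, 4 are named for genes of stratified or ciliated epithelia. Krt4, a keratin of lining epithelia such as that of the oesophagus, gave 5.86 and 5.83 on the Scap-/- arrays and 4.93 and 5.07 on the Scap_WT arrays, a 1.79-fold higher level (log2 difference 0.84, SE 0.111, limma adjusted p = 0.0121). Lce3f, a late cornified envelope protein of skin, gave 5.26 and 4.37 against 3.18 and 3.22 (log2 difference 1.61, SE 0.236, adjusted p = 0.0306). The 2 Scap-/- arrays differ from each other here by more than those of Scap_WT, yet both exceed them. Defb4, a beta-defensin that kills microbes at epithelial surfaces, gave 3.92 and 3.71 against 2.91 and 2.99 (log2 difference 0.87, SE 0.106, adjusted p = 0.00783). Both pools are dim for Defb4, in the dimmest bin of signals. Krt4, Lce3f and Defb4 each lost the call without Scap-/- array 1 (0.82, 1.16 and 0.76), without Scap_WT array 1 (0.77, 1.59 and 0.83) and without Scap_WT array 2 (0.91, 1.63 and 0.91), and Krt4 also without Scap-/- array 2 (0.86).

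Keratin, cornified envelope and defensin genes were listed after earlier results on these samples were known, so their count is no independent evidence. Of 116 listed genes 26 were measured, 3 were called higher and none lower, 11 were apart and higher and 2 apart and lower, and the list's median was 0.091. Over all 5928 measured genes 15.1% were apart and higher and 14.4% apart and lower, and 4 were called higher in all. Lce3a, a close relative of Lce3f, gave 5.31 and 4.29 against 3.16 and 3.33 (log2 difference 1.56, limma adjusted p = 0.0764) and was chosen for naming once its values were known. The probe sets of both may share targets, since family members are alike in sequence, and both show the same order of arrays. Lce3b, another member of that family, differed by 0.33 (8.40 and 8.16 against 8.03 and 7.88). The basal keratin Krt14 differed by 0.37 and the envelope cross-linking enzyme Tgm1 by 0.27, both uncalled, and Trp63, a transcription factor that defines stratified epithelia, by 0.23. The keratin Krt76 lay lowest at -0.31, and involucrin, Ivl, at -0.07.

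Dnaic1, a dynein chain of the outer arms of motile cilia, gave 5.32 and 4.87 on the Scap-/- arrays and 3.45 and 3.47 on the Scap_WT arrays. The pools are well apart (log2 5.09 ± 0.32 against 3.46 ± 0.016; difference 1.63, SE 0.148, limma adjusted p = 0.00136). It was the 1 called gene among 27 measured of 81 listed genes of motile cilia. The next highest were Cfap43 (0.29), Cfap69 (0.24) and Ccdc39 (0.18), all parts of the axoneme or its assembly, and the lowest was Spef2 (-0.13). The axonemal dyneins Dnah5 and Dnah9 differed by 0.04 and 0.15. The list's median was 0.052, with 6 genes apart and higher and 0 apart and lower, against 15.1% and 14.4% of all measured genes. Cplane1, needed to build primary cilia and not in that list, gave 6.46 and 5.92 against 5.24 and 5.37 (1.85-fold, log2 difference 0.88, SE 0.167, adjusted p = 0.196). It was called without Scap-/- array 2 (1.15) and with the 18S covariate (0.94).

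**Figure D2:**
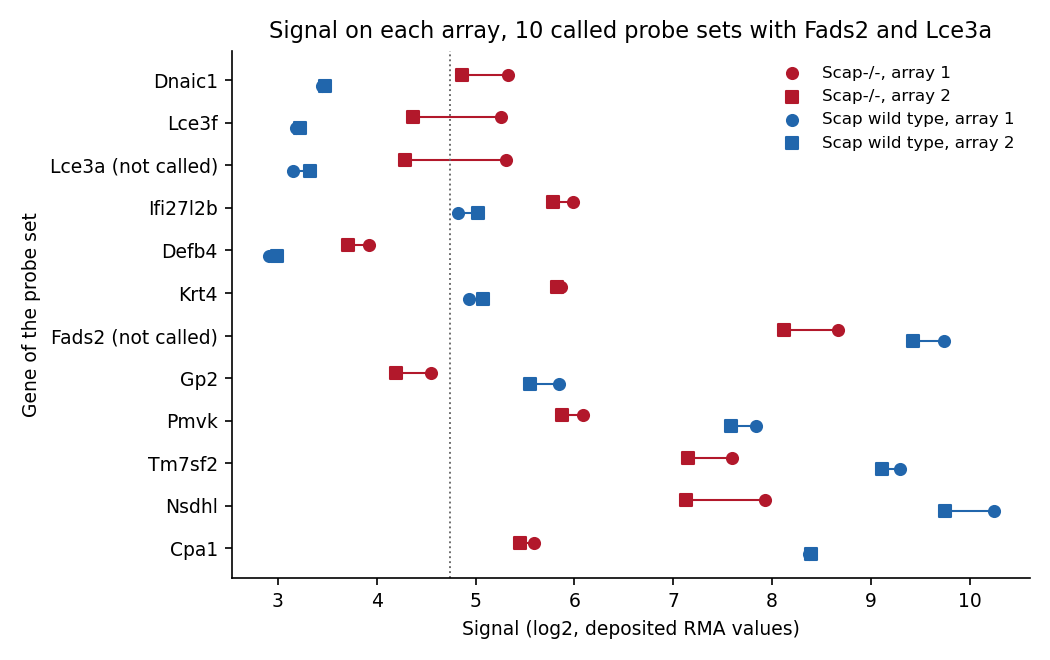
Log2 signal on each of the 4 Scap arrays (red, Scap-/-; blue, Scap_WT; circle, array 1; square, array 2) for the 10 called probe sets and for Fads2 and Lce3a, which were not called; lines join duplicates and the dotted line marks the median of all probe sets, 4.74. Cpa1 shows the widest gap, from 5.59 and 5.45 to 8.37 and 8.39, while the Scap-/- duplicates of Lce3f (5.26 and 4.37) and Lce3a (5.31 and 4.29) lie farther apart than their Scap_WT duplicates.

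One interferon-inducible transcript was called. At probe set 165944_at Ifi27l2b, a member of the family of small mitochondrial proteins induced by interferon, gave 5.98 and 5.78 on the Scap-/- arrays and 4.83 and 5.02 on the Scap_WT arrays (1.94-fold, log2 difference 0.96, SE 0.117, limma adjusted p = 0.00783). At its other probe set, 168934_at, the values were 6.62 and 6.53 against 6.51 and 6.50, a log2 difference of 0.07. The 2 probe sets therefore disagree in size and share only the direction. The call at the first was lost without Scap-/- array 1 (0.85) or Scap_WT array 1 (0.86). Xaf1, an interferon-induced promoter of cell death, gave 6.40 and 6.02 against 5.72 and 5.73 (1.40-fold, log2 difference 0.48, adjusted p = 0.999; 0.30 without Scap-/- array 1). Of 70 listed interferon response genes 16 were measured and, at the brighter probe set of each, none was called. Their median was -0.0092, with 3 apart and higher and 3 apart and lower, close to the 15.1% and 14.4% of all measured genes. The ubiquitin ligase Rnf213 lay lowest, at 7.55 and 6.90 against 8.12 and 7.34 (log2 difference -0.51). Its groups overlap, and leaving out 1 array gave -0.90 to -0.12. Array 2 was dimmer than array 1 in both pools, so those values also carry the gap between array numbers. The antiviral enzymes Oas1b and Oas3 differed by 0.18 and 0.08, the sensor Ifih1 by -0.03 and the regulator Irf7 by -0.26. Both pools had received poly(I:C), and no uninjected pool of this genotype was compared.

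Among bright genes outside these groups, the largest differences were not called in the fit used here. Abhd2, a hydrolase of acylglycerols, gave 8.24 and 7.38 on the Scap-/- arrays and 7.06 and 6.30 on the Scap_WT arrays. It was 2.19-fold higher in Scap-/- (log2 difference 1.13, SE 0.293, limma adjusted p = 0.929), and the difference was 0.70 without Scap-/- array 1 and 0.75 without Scap_WT array 2. Cyb5b, the cytochrome b5 of the outer mitochondrial membrane, gave 6.62 and 5.85 against 7.46 and 7.20, 2.14-fold lower (log2 difference -1.10, adjusted p = 0.999). Cisd1, an iron-sulfur protein of the same membrane, gave 6.89 and 6.27 against 7.66 and 7.26, 1.84-fold lower (log2 difference -0.88, adjusted p = 0.999). Without Scap-/- array 2 the difference was -0.71 for Cyb5b and -0.56 for Cisd1. Smaller differences in the lower direction were those of the cartilage glycoprotein Cnmd (-0.73, and -0.44 without Scap-/- array 2 or -0.46 without Scap_WT array 1), the growth factor Hbegf (-0.45) and the folate enzyme Shmt1 (-0.40). In the higher direction they were those of Ascc2, a subunit of a transcriptional coactivator complex (0.40), the RNA-binding ubiquitin ligase Trim71 (0.39, and 0.26 without Scap-/- array 1), the actin-binding protein Tagln2 (0.39), the heme synthesis enzyme Alad (0.37) and the basement membrane collagen Col4a2 (0.35, and 0.20 without Scap-/- array 1). The cytochrome P450 Cyp2c55, highest of the 11 measured drug and steroid metabolism genes, gave 6.10 and 5.13 against 5.03 and 4.25 (log2 difference 0.98, adjusted p = 0.999). The difference was 0.49 without Scap-/- array 1 and 0.58 without Scap_WT array 2. For Abhd2, Cyb5b, Cisd1, Cnmd and Cyp2c55 array 2 was dimmer than array 1 in both pools. Leaving out 1 array therefore also moves these differences by the gap between array numbers, which the labels do not pair.

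Over all genes, the differences at probe sets of the same gene showed little relation to each other. There were 1374 genes with 2 or more probe sets, which form 2344 pairs. The 2 differences had the same sign in 1192 pairs (50.9%), and their correlation over the pairs was 0.03, a description over pairs that share genes and arrays. Among the 705 pairs in which both mean signals exceeded the overall median, 51.5% had the same sign, with a correlation of 0.10. In 15 pairs 1 member differed by at least 0.5, and 9 of these had the same sign. Where both were bright as well, 6 of 7 pairs, from 5 genes, had it. The only pair in which both differed by at least 0.5 was of Myom2, a protein of the striated muscle M-band.

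For Myom2, probe set 168202_f_at gave 6.33 and 5.71 on the Scap-/- arrays and 7.10 and 6.60 on the Scap_WT arrays (log2 difference -0.83, limma adjusted p = 0.999), and 166282_f_at gave 6.27 and 5.27 against 6.73 and 6.28 (-0.73). Without Scap-/- array 2 these were -0.52 and -0.23. At both probe sets array 2 was dimmer than array 1 in both pools, so these values also carry that gap. Its remaining probe set, 166022_i_at, differed by -0.19. All 3 were lower on both Scap-/- arrays. The Myom2 signal at the first of these was 4.54 to 5.09 in the other 3 pools, so both Scap pools were high there. At 166022_i_at they were not, with 6.04 to 6.34 on the Scap arrays and 6.16 to 6.38 in the other 3 pools. The 11 measured skeletal muscle markers, by contrast, had a median of 0.025 and ran from Pygm, muscle glycogen phosphorylase (-0.14), to Ckm, muscle creatine kinase (0.18).

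Of the 10 called genes, 8 have 1 probe set each and so no second reading. The other 2 have a further probe set that did not repeat the difference. Besides Ifi27l2b these are Pmvk, where 167266_f_at gave 6.09 and 5.87 against 7.84 and 7.59 and 166410_i_at gave 5.89 and 5.95 against 5.82 and 6.11 (log2 difference -0.04). By the ending of their names, 3 of the called probe sets are plain _at, 5 are _f_at, 1 is _i_at and 1 is _s_at, against 7488, 1091, 1307 and 122 of all tested. An _f_at or _s_at probe set can match more than 1 transcript. Among uncalled genes, the second probe set of Cyb5b differed by -0.12, the others of Hbegf by -0.05 and 0.08, and the other of Trim71 by 0.07. Probe set 135073_at of 0610005C13Rik differed by -0.94 and its 3 others by 0.08 to 0.14, and 168081_at of 2210010C04Rik by -0.91 and its 2 others by -0.18 and 0.10. These last genes were named after their values were seen.

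**Figure D3:**
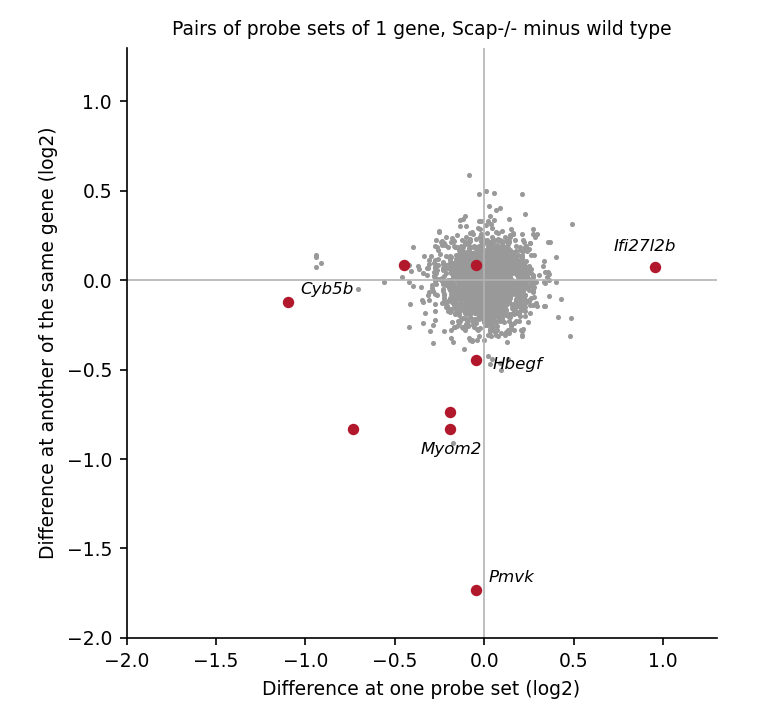
Each point is a pair of probe sets of 1 gene, with the log2 difference between Scap-/- and Scap_WT at one on the x axis and at the other on the y axis (2344 pairs of 1374 genes); pairs of 5 named genes are in red. Points would follow the diagonal if probe sets agreed, and the cloud is round (correlation 0.03), with Pmvk (-1.73 and -0.04) and Ifi27l2b (0.96 and 0.07) on the axes and a Myom2 pair (-0.73 and -0.83) on the diagonal.

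Of the 1374 genes, 55 had all their probe sets apart in 1 direction, 18 of them higher and 37 lower. At the brightest probe set alone, 15.1% of all measured genes were apart and higher and 14.4% apart and lower. The count was not compared with that for unrelated probe sets, so it is no evidence of agreement. Their differences were small. Ranked by the smaller of the differences, those at the top included Upk1b, a uroplakin of the bladder lining (0.26 and 0.21), Rpl3l, a ribosomal protein of muscle (0.23 and 0.19), the GATA cofactor Zfpm2 (0.23 and 0.18) and the cytoskeletal Obsl1 (0.17 and 0.23). The lowest were Tysnd1, a peroxisomal protease (-0.30 and -0.28), the clone AW549542 (-0.28 and -0.35), the apoptosis inhibitor Api5 (-0.29 and -0.25), Myom2 and the kinase Ttbk2 (-0.19 and -0.33), which acts in cilium assembly. None of these named genes was called.

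The remaining gene lists had no called member, and their medians lay between -0.10 and 0.09, against 0.0051 for all genes. The 22 measured genes of the mitochondrial respiratory chain had a median of 0.068 and a range from -0.18 (Ndufb6) to 0.28 (Atp5g2). The 13 measured genes of transport between endoplasmic reticulum and Golgi, the route that SCAP takes, had a median of 0.016 and ran from Trappc3 (-0.25) to the coat protein Copg1 (0.13). In the unfolded protein response 4 genes were measured, with a median of -0.10, from asparagine synthetase, Asns (-0.26), to the stress kinase Eif2ak3 (-0.04). The 13 acute phase, complement and coagulation genes had a median of 0.036, with plasminogen lowest (-0.17) and hemopexin highest (0.23). Glycogen, gluconeogenesis and insulin signalling genes, 6 in all, ran from the kinase Sik1 (-0.12) to the glycogen-targeting subunit Ppp1r3g (0.24). The 26 cell cycle genes had a median of 0.0093, between Racgap1 (-0.43) and the mitotic kinase Aurkb (0.37). Among 18 extracellular matrix genes the median was 0.062, from Fbln2 (-0.23) to Col4a2. The 11 proteasome genes ran from Psmc5 (-0.19) to Psmf1 (0.11). The acetyltransferase family member Nat8 lay lowest (-0.33) in drug and steroid metabolism, whose median was 0.0050. The 1 measured bile acid gene, the transporter subunit Slc51a, differed by 0.09.

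No marker of the liver's own cell types was called. The 3 measured hepatocyte markers lay between -0.05 and 0.08. Fga (8.74 to 9.05) and Tdo2 (7.64 to 7.78) were bright. Serpina1a was dim (3.44 to 3.57), so its small difference does not show an unchanged transcript. The 6 macrophage and Kupffer cell markers lay between -0.04 for Siglec1 and 0.08 for Cx3cr1. Of 8 endothelial markers 4 were apart and lower and none apart and higher, against 14.4% and 15.1% of all measured genes, with a median of -0.11. They ran from Mmrn2 (-0.32) through the sinusoidal lectin Clec4g (-0.12) to the growth factor receptor Flt1 (0.19). Bile duct markers (4) lay between -0.03 and 0.09, T and NK cell markers (6) between -0.04 and 0.20, B cell markers (2) between 0.03 and 0.08, neutrophil markers (3) between 0.03 and 0.07 and erythroid markers (6) between -0.12 and 0.15. The stellate cell actin Acta2 differed by -0.20 and the lectin Colec11 by 0.15, and the 1 adipocyte marker, Ucp1, by -0.0092.

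**Figure D4:**
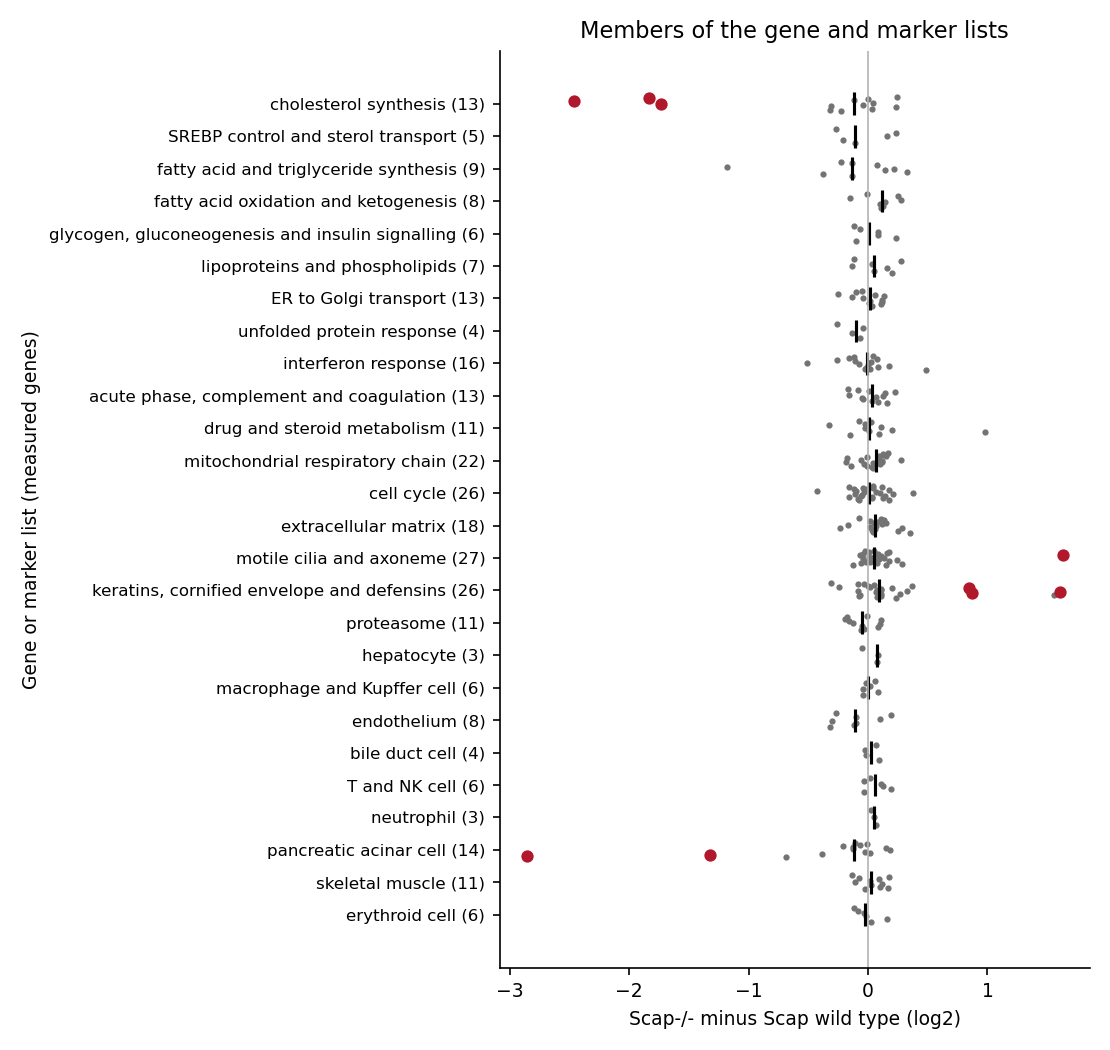
Log2 difference between Scap-/- and Scap_WT of each measured gene, at its probe set of highest mean signal, in the lists with 3 or more measured genes (numbers in brackets); red points were called and black bars mark list medians. Called genes occur in 4 lists, and all medians lie between -0.13 and 0.11.

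The called genes were also read in the pools with nuclear SREBPs. Those comparisons share SREBP_WT with each other and no array with the Scap comparison. At their called probe sets the 3 sterol genes were the reverse of the Scap comparison. Nsdhl stood at 3.12 in TgSREBP-1a and 3.50 in TgSREBP-2, Tm7sf2 at 1.45 and 2.27, and Pmvk at 2.93 and 3.05 (log2 difference from SREBP_WT). The other Pmvk probe set, 166410_i_at, stood at 0.03 and 0.14. Of the uncalled genes, Fads2 stood at 2.64 and 1.18, Cyb5b at 1.61 and 0.76, and Cisd1 at 0.92 and 0.50, each positive with both transgenes. Cpa1 stood at -4.39 and 0.78 and Gp2 at -1.48 and 1.08, opposite in sign between the transgenic pools. The Cpa1 signal was 10.25 and 9.53 in SREBP_WT, 5.38 and 5.60 in TgSREBP-1a and 10.84 and 10.49 in TgSREBP-2, and the Scap-/- values lie within the range of TgSREBP-1a.

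The called higher genes had smaller differences in the transgenic pools than in Scap-/-. They were chosen for a large difference in Scap-/-, so smaller ones elsewhere were likely from the start and are no evidence of a trait particular to Scap-/-. Krt4 stood at -0.52 in TgSREBP-1a and -0.48 in TgSREBP-2, Defb4 at -0.21 and -0.08, Lce3f at -0.09 and -0.10, and Dnaic1 at -0.26 and 0.22. Krt4, Dnaic1, Lce3f and Defb4 were each higher on both Scap-/- arrays than on any array of the other 3 pools. That they also exceeded the Scap_WT arrays follows from how they were called. At its called probe set Ifi27l2b had positive differences with both transgenes too (0.61 and 0.60), as had Abhd2 (0.96 and 0.64) and Cyp2c55 (1.68 and 1.86). The brighter Ifi27l2b probe set, 168934_at, stood at -0.20 in TgSREBP-1a and 0.0029 in TgSREBP-2. The 2 wild-type pools differ in diet, age and injections, and they were unlike for several of these genes. The log2 difference of Scap_WT from SREBP_WT was 2.52 for Nsdhl, 1.33 for Pmvk and 0.82 for Tm7sf2. It was -1.50 for Cpa1, -0.70 for Lce3f and between -0.37 and 0.19 for the other called probe sets. For the uncalled Cyb5b it was 1.13. Nsdhl gave 7.79 and 7.17 in SREBP_WT, close to the 7.93 and 7.13 of Scap-/-.

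**Figure D5:**
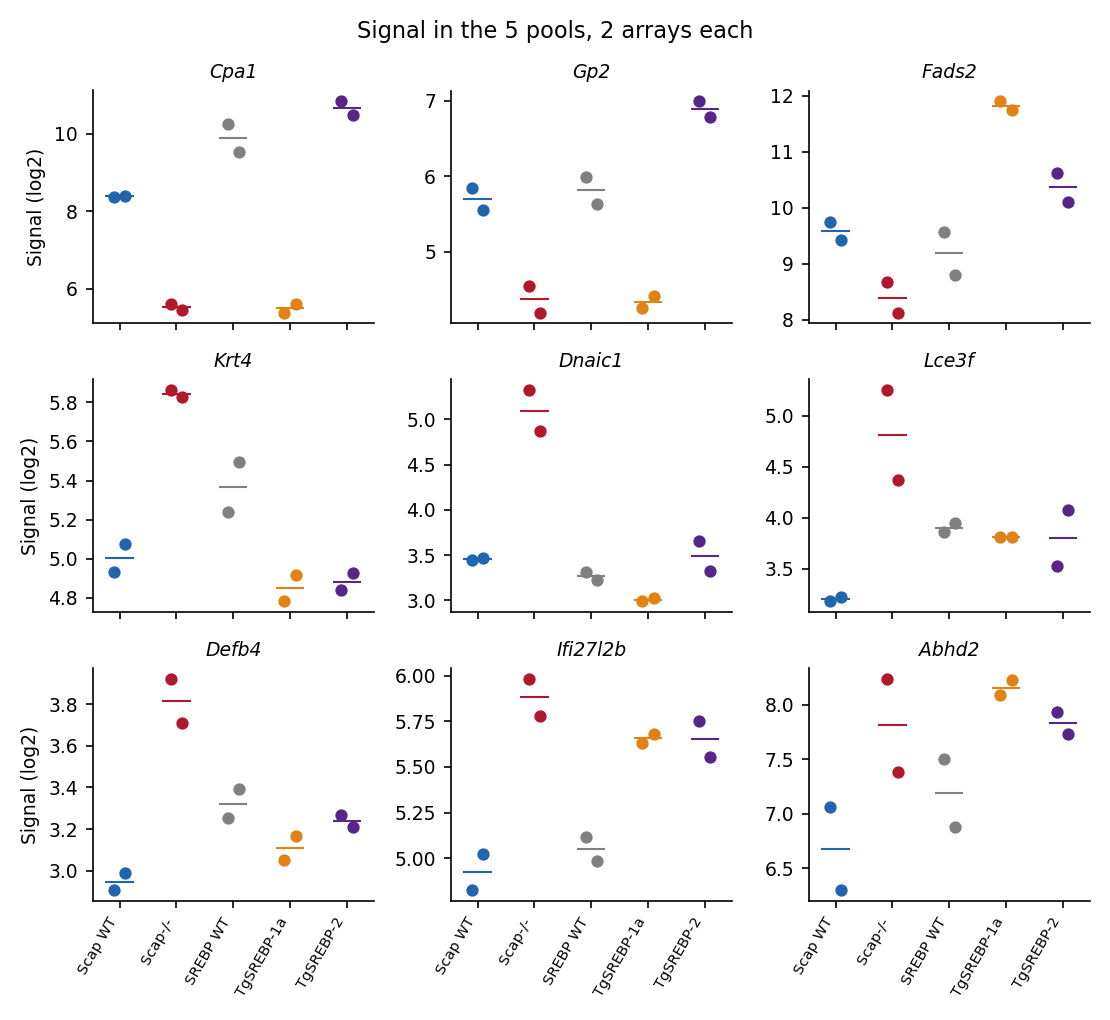
Log2 signal of 9 genes on the 2 arrays of each of the 5 pools, with a bar at the mean; each panel has its own y axis, which does not start at 0. Cpa1 and Gp2 are low in Scap-/- and TgSREBP-1a, Fads2 is lowest in Scap-/-, and Krt4, Dnaic1, Lce3f and Defb4 are highest in Scap-/-.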

How the data were processed

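Liver RNA of 5 groups of mice was measured on Affymetrix MG_U74Cv2 arrays, 2 arrays per group, each group being 1 pool of RNA (20 µg) from 5 mice. The deposited values are log2 expression per probe set, made by the authors with RMA (background correction, normalisation across arrays and summary of probes), per the submitters' processing notes, which give no version. Microarray Suite 5.0 is the software named in the design text, and a genome build is not given in the sources used here. The log2 scale was read from the range of the values, 2.17 to 13.3, and they were used as deposited.

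The comparison was fitted with limma 3.58.1 in R 4.3.3 (lmFit and eBayes, 10 arrays in 5 groups, 5 residual and 6.26 prior degrees of freedom, two-sided, Benjamini-Hochberg over 11868 probe sets). Called means an adjusted p under 0.05 and at least 1.5-fold. Tables were made with Python 3.11.15. Gene names come from the platform annotation, with 1 symbol for 7717 probe sets, several for 150 and none for 4001. Of these, 7677 matched RefSeq by Entrez identifier. A gene stands at its probe set of highest mean over the 10 arrays. Named were the called genes, the 8 largest uncalled differences each way (1 symbol, no clone name, arrays apart, p under 0.01, brighter mean of at least 6), 5 genes each way with all probe sets apart in 1 direction (1 of them is not reported here), the extremes of each list and all acinar markers. Others are said to be named after their values were seen. The groups compared and the lists were chosen with earlier results of these data known.

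The procedure was tested on simulated data. Alternatives were other normalisations, filters, variance models and fold floors, the Scap arrays alone, a replicate block and leaving out each Scap array. The removal of acinar markers and the looser promoter motifs were added after the data were seen.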

Additional observations from a re-analysis of the deposited data

How the results depend on the processing

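The 10 calls became 4 (1 higher, 3 lower) when only the Scap arrays were fitted, 4 (2 and 2) with plain _at probe sets alone, of which 3 are shared, and 6 (1 and 5) with treat against 1.2-fold. Leaving out 1 Scap array at a time gave 3 to 11, namely 3 without Scap_WT replicate 1, 6 without Scap_WT replicate 2, 6 without Scap-/- replicate 1 and 11 without Scap-/- replicate 2. Under quantile normalisation, median centring, cyclic loess, a brighter set of probe sets, a variance trend, robust variance, the 18S covariate, no fold floor and a 2-fold floor there were 7 to 13. Replicate numbers are shared between the pools, but the labels do not pair them. Same-numbered deviations from the group means correlated at 0.332 between the Scap pools, and the fit with the replicate number as a block called 19 (7 higher, 12 lower), the 10 and 9 more, among them Fads2 (adjusted p = 0.00239), Cisd1 (0.00494), Cyb5b (0.0137), Cplane1 (0.0308), Lce3a and Htra4. At least 1.5-fold apart were 57 and 93 probe sets between same-numbered Scap arrays, against 226 and 187 between duplicates. Cpa1, Pmvk and Dnaic1 kept their calls in every alternative that tested them, apart from Cpa1 where acinar markers were removed. Nsdhl lost its call in 2 of 16 (differences -2.86 to -2.07), Tm7sf2 and Gp2 in 3 of 16, Ifi27l2b in 5 of 17, Defb4 in 6 of 16, Lce3f in 6 of 15 (1.16 to 2.05) and Krt4 in 7 of 16. None reversed. Of 738 recomputed values of uncalled named probe sets 8 became called and 0 turned sign, and 205 of 231 list medians stayed within 1 SD. Dim signals limit the rest: values have no detection calls, and a pseudocount does not apply to log2 values.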

Other observations

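Htra4, a serine protease, was near the threshold and was named after its values were seen. It gave 4.19 and 4.15 on the Scap-/- arrays and 4.94 and 4.85 on the Scap_WT arrays, with close duplicates (log2 difference -0.72, SE 0.116, limma adjusted p = 0.0621). In the other pools it lay between 4.43 and 4.76, so that the Scap-/- arrays were the lowest and the Scap_WT arrays the highest of the 10.

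The array's control probe set for the B1 repeat, a short element scattered through mouse transcripts, gave 8.61 and 8.05 on the Scap-/- arrays and 9.37 and 9.16 on the Scap_WT arrays (log2 signal). In the other 3 pools it gave 7.56 to 8.24. The gap between the 3′ and 5′ control probe sets of Gapdh, a sign of RNA integrity, was 0.66 and 0.65 in Scap-/- against 0.68 and 0.63 in Scap_WT. That of actin was 0.89 and 0.80 against 0.99 and 0.98.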
